A study of Zea mays with 18 samples.

Results

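The 200 maize gene IDs described here were low in zygotes and higher in both daughter cells of the zygote's first division. They are 200 of the 39475 gene IDs in the deposited count table. Levels are given in CPM, the count of an ID per 1000000 counts of the library. An ID could enter only if its mean in zygotes 12 h after pollination was under 2 CPM and its mean in zygotes 24 h after pollination was under 2 times the sum of the 12 h mean and 1 CPM, which 20415 IDs met. These were ranked by a selection ratio, the lowest of the 6 daughter-cell values plus 1 CPM over the highest of the egg, 12 h zygote and 24 h zygote means plus 1 CPM, and the top 200 were taken. Egg, zygote and daughter-cell levels therefore chose the IDs and are given as a description, without a test. Sperm levels and the annotation were not used in the choice, nor was the direction of any difference between the daughter cells.

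The study sequenced polyadenylated RNA from small pools of hand-isolated cells of untreated wild-type plants of the maize inbred line B73, with 3 libraries in each of 6 groups. The groups were apical cells (16 cells per library), basal cells (13 to 14), egg cells (20), zygotes at 12 h (14 to 15), zygotes at 24 h (16 to 17) and sperm cells (1000). The label hap of the zygotes was taken to stand for hours after pollination. Every library is a pool of cells, and the labels do not say which or how many plants a pool came from, so the p-values reflect only how far these libraries spread, which may be technical.

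In flowering plants 1 sperm cell fertilizes the egg, and the zygote then divides unequally. The small apical daughter founds most of the embryo proper and the large basal daughter mostly forms the suspensor, the stalk that anchors and feeds the embryo. Around fertilization the embryo passes from RNA stored in the egg to RNA made from its own genome, and RNA carried in by the sperm can also be present.

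Library totals lay between 11128444 and 25771168 counts. The cDNA was amplified without molecular identifiers, so floors given here cover counting error only. The identity of the cells was checked with marker genes, none of which was among the 200 IDs. The sperm gamete-fusion gene hap2 had 0.225 to 3.78 CPM in daughter cells and 294 to 418 CPM in sperm. The embryo sac genes es1, es2 and es4 summed to 20.9 to 32.1 CPM in apical and 112 to 149 CPM in basal cells, against 500 to 4628 CPM in egg libraries. The daughter cells were less clearly marked. The 3 IDs of the basal list (HB85, wox9A and wox9C) summed to 1.35 to 13.2 CPM in apical libraries and to at least 14.6 CPM in each basal library. Within it wox9A, a homeobox gene whose Arabidopsis relatives mark the basal lineage, averaged only 1.27 CPM in apical and 2.57 CPM in basal libraries, and wox9C was at or near 0. The 2 IDs of the apical list (CADR1 and wox2A) summed to 1.48 to 9.31 CPM in apical libraries and 5.56 to 5.87 CPM in basal libraries, so they did not separate the sister cells. The 5 genes of mature pollen summed to 70.2 CPM in apical replicate 1, to at most 3.63 CPM in the other apical libraries and to 3.20 to 7.80 CPM in basal libraries. The 32 endosperm IDs summed to 203 to 592 CPM in apical cells and 231 to 573 CPM in basal cells, against 351 to 1237 CPM in eggs. Among them the zein IDs z1A2_2 and z1C1_7 had 7.25 and 5.49 CPM in basal replicate 3 and 0 CPM in the other basal libraries. The zein ID gz27 had 0.935 to 2.55 CPM over the basal libraries and averaged 0.706 CPM in apical cells. It was higher before the division, with means of 41.8 CPM in eggs, 30.8 CPM at 12 h and 23.03 CPM at 24 h. Nucellus markers (3 IDs) summed to 11.6 to 15.0 CPM in apical and 10.1 to 13.3 CPM in basal libraries. The 60 wounding and stress IDs summed to 688 to 1015 CPM in apical and 502 to 1055 CPM in basal libraries, against 2001 to 3491 CPM at 12 h. Not every one of the 60 IDs followed this sum. Among them wip1 had 20.9, 18.9 and 213 CPM in the apical libraries. Its basal libraries had 2.90, 171 and 92.7 CPM. It had at most 0.935 CPM in any egg library, 1.11 CPM at 12 h and 5.76 CPM at 24 h. The part of wounding in the daughter-cell values was not tested. Egg replicate 1 stood apart from the other egg libraries, with rank correlations within the egg group down to 0.841, against 0.937 to 0.963 within the apical group.

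The 200 IDs together took 2010 to 2338 CPM of each apical library and 2202 to 2526 CPM of each basal library. They took 171, 393 and 828 CPM of the 3 egg libraries, 119 to 194 CPM of the 12 h zygote libraries and 133 to 263 CPM of the 24 h zygote libraries. The sperm libraries gave them 2824 to 3661 CPM. In these pools a change in RNA per cell and a change in the share of cells holding an RNA cannot be told apart, and CPM gives shares of a library, not amounts per cell.

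The selection ratio ran from 1.39 to 17.7 with a median of 1.96. It was 2 or more for 94 IDs and 4 or more for 13. The daughter-cell mean ranged from 0.804 to 67.5 CPM with a median of 7.44 CPM, and 72 IDs stayed under 5 CPM. The highest earlier mean was that of the egg for 110 IDs, that of 24 h zygotes for 52 and that of 12 h zygotes for 38. The edge of the set was not a gap. GRMZM2G111780, the last ID inside, had 3.68 CPM in its lowest daughter library against 2.37 CPM in its highest earlier group. GRMZM2G091696, the first ID outside, had 4.19 CPM against 2.74 CPM.

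**Figure D1:**
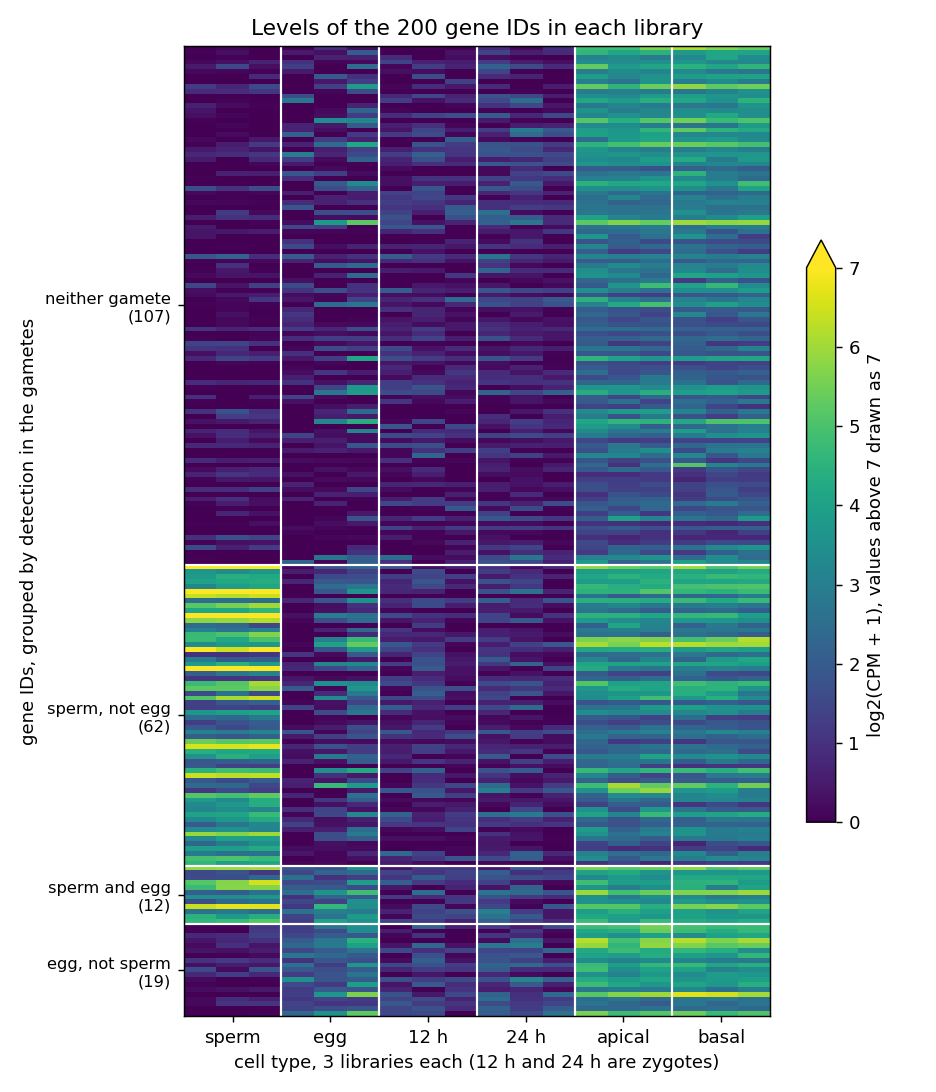
Levels of the 200 IDs (rows) in the 18 libraries (columns), as log2(CPM + 1), grouped by detection in sperm and egg, detected meaning that none of a group's 3 libraries was under 1 CPM. Daughter-cell columns are brighter than zygote columns in most rows, although 72 IDs average under 5 CPM in daughter cells. The blocks of 62 and 12 IDs are those detected in sperm.

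All 6 daughter libraries were above all 9 egg and zygote libraries for 164 of the 200 IDs, which the selection favours, and for 3.14% of all IDs in the table. Detection was set at 1 CPM or more in all 3 libraries of a group. By that measure 192 IDs were detected in apical cells and 192 in basal cells, 31 in eggs, 9 in zygotes at 12 h and 23 in zygotes at 24 h. Low is not absent, however. Only GRMZM2G145772 had 0 counts in all 9 egg and zygote libraries, and 12 IDs had 0 counts in all egg libraries, 13 in all 12 h libraries and 5 in all 24 h libraries. To call the set first seen in daughter cells would therefore go against its egg and zygote values, and GRMZM2G145772 was itself present in sperm.

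Detection in the sperm libraries, which had no part in the selection, and in the egg libraries, which had, gave 4 classes. Not detected does not mean absent, since 1 library under 1 CPM suffices for it. By this measure 107 IDs (53.5%) were detected in neither gamete, against 58.2% of all IDs. Another 62 (31.0%) were detected in sperm and not in eggs, against 6.07% of all IDs, 12 (6.0%) in both gametes, against 22.2%, and 19 (9.5%) in eggs and not in sperm, against 13.5%. The egg mean was limited by the selection, so nothing is read from these shares. The sizes also depended on egg replicate 1, and without it they were 91, 37, 37 and 35 in the same order.

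The largest class, detected in neither gamete, had a median of 5.71 CPM in apical cells and 6.27 CPM in basal cells, against 0.397 CPM in eggs, 0.551 CPM in 12 h zygotes, 0.531 CPM in 24 h zygotes and 0.0965 CPM in sperm. GRMZM2G302913 had the highest selection ratio of the set, 17.7. It had 27.0, 27.1 and 48.2 CPM in apical and 67.8, 49.6 and 39.1 CPM in basal cells. In eggs it had 0, 0.946 and 0.218 CPM, at 12 h 0, 0.0549 and 0 CPM, at 24 h 0.771, 0.103 and 0.881 CPM, and in sperm 0, 0.0800 and 0 CPM. Each daughter library thus held far more of this RNA than any of the 12 others, and apical and basal values overlapped. The reference table used here gives it no name.

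GRMZM2G354696 had 23.4, 16.7 and 21.5 CPM in apical and 12.6, 16.3 and 16.0 CPM in basal cells. Its eggs had 0.425, 0.252 and 3.10 CPM, its 12 h zygotes 0, 0 and 0.270 CPM, its 24 h zygotes 1.70, 0.516 and 0.771 CPM and its sperm 0.0524, 0.200 and 0 CPM. All apical libraries were above all basal libraries, with a log2 fold change of 0.54 ± 0.86 (SE) and an adjusted p of 1 by edgeR's quasi-likelihood test. GRMZM2G559436 had 7.64, 8.93 and 6.60 CPM in apical and 8.52, 16.3 and 9.56 CPM in basal cells, and no egg, zygote or sperm library passed 0.811 CPM. GRMZM2G064283 had 9.74, 9.38 and 10.5 CPM in apical and 11.9, 8.42 and 8.46 CPM in basal cells, with earlier values up to 1.70 CPM at 12 h. Both had overlapping daughter cells. GRMZM2G312672 was the least even of the first 10, with 39.0, 12.9 and 16.5 CPM in apical and 21.4, 16.2 and 22.9 CPM in basal cells, 3.55, 2.12 and 0.826 CPM in 24 h zygotes and 1.45, 0 and 4.41 CPM in eggs. Apical replicate 1, its highest library, is also the library with the high pollen markers, whose part in this value was not tested.

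**Figure D2:**
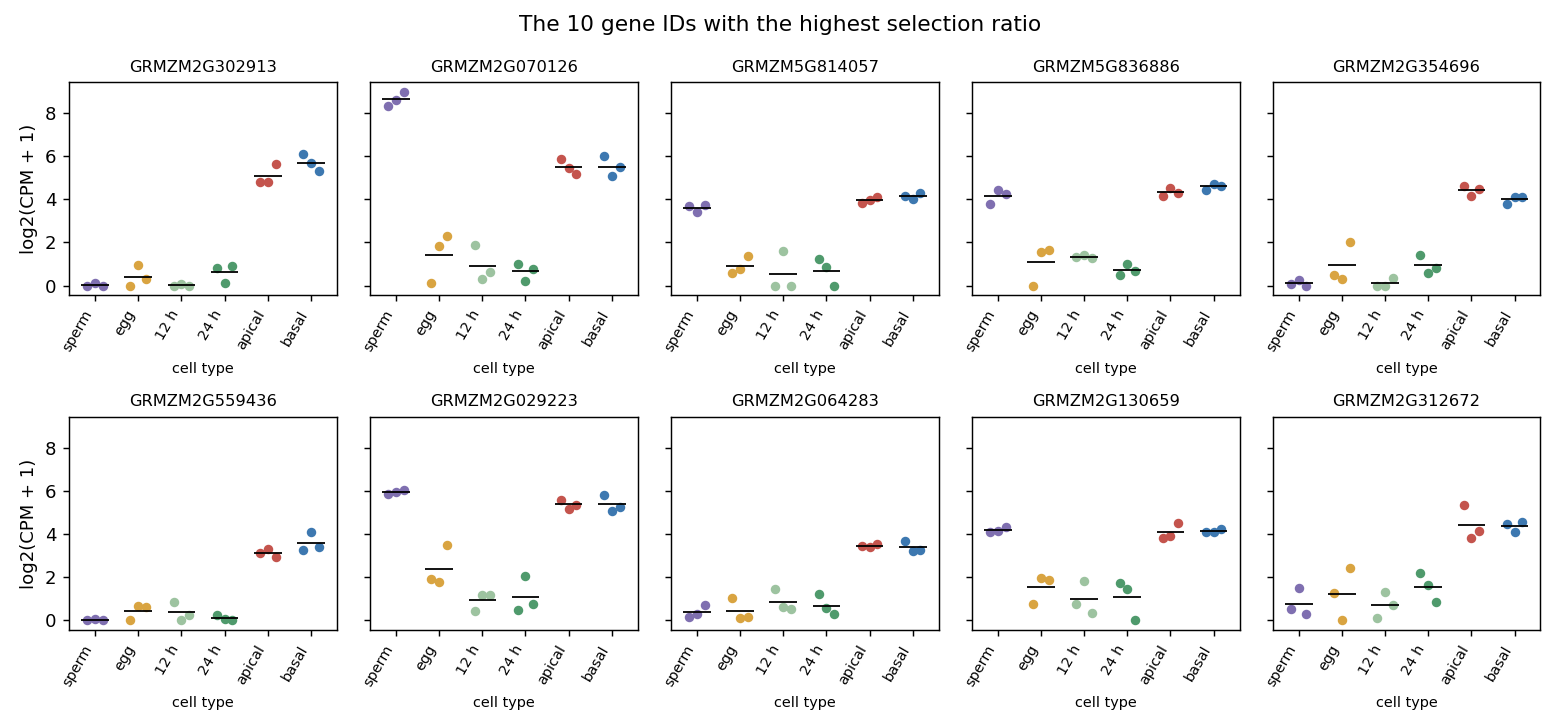
The 10 IDs with the highest selection ratio, as log2(CPM + 1) by cell type, with 1 point per library and a line at the mean of the 3 log values. All 10 sit higher in apical and basal cells than in eggs and zygotes, and 5 of the 10 are also high in sperm.

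Sperm held many of the IDs. Of the 200 IDs, 74 (37.0%) were detected in sperm, against 28.3% of all IDs in the table. Among the 15460 IDs detected in all 6 daughter libraries the share was 58.9%, and among the 586 of those that also met the zygote limits it was 36.7%. The set's share was thus close to that of the most similar background and below that of daughter-cell RNAs at large. The 586 similar IDs include 189 IDs of the set itself, so their shares, here and below, lean towards those of the set. Sperm was under 0.1 CPM in all 3 libraries for 48 IDs (24.0%), against 44.2% of all IDs. The number detected in sperm was 62 with a limit of 2 CPM, against 24.4% of all IDs, and 92 with a limit of 0.5 CPM, against 32.2%. It was 93, against 32.6%, with CPM scaled by TMM, which corrects for a few very abundant RNAs.

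For part of these IDs, sperm had the highest level of the course in CPM without TMM scaling. Every sperm library was above every daughter library for 31 IDs (15.5% of the set), against 13.9% of all IDs and 15.7% of the 586 similar IDs. The sperm mean was the highest of the 6 group means for 47. The share of all IDs with this trait was not computed, so nothing is read from that count. The 62 IDs detected in sperm and not in eggs had a median of 6.77 CPM in apical cells and 7.30 CPM in basal cells, 1.39 CPM in eggs, 0.772 CPM at 12 h, 0.616 CPM at 24 h and 13.6 CPM in sperm.

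GRMZM2G070126, second by selection ratio at 10.5, had 57.2, 42.2 and 35.1 CPM in apical and 62.5, 32.3 and 44.5 CPM in basal cells. It had 0.0850, 2.59 and 3.86 CPM in eggs, 2.66, 0.220 and 0.539 CPM at 12 h and 0.977, 0.155 and 0.716 CPM at 24 h. Its sperm libraries had 323, 386 and 501 CPM. The course of this ID was therefore high in sperm, low in zygotes and intermediate in daughter cells, with no overlap between sperm, daughter and zygote libraries.

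GRMZM2G359314 had the highest sperm mean of the set. It had 18.7, 6.20 and 5.52 CPM in apical and 6.74, 7.82 and 6.87 CPM in basal libraries, at most 2.91 CPM in any zygote library, and 718, 630 and 738 CPM in sperm. The highest daughter value, again, was in apical replicate 1. GRMZM5G827026 had 21.7, 21.5 and 33.7 CPM in apical and 23.8, 21.1 and 26.1 CPM in basal cells, 2.31, 5.11 and 0.606 CPM at 24 h, and 207, 255 and 348 CPM in sperm. GRMZM2G018142 had 22.2, 21.1 and 16.6 CPM in apical and 23.7, 24.9 and 14.6 CPM in basal cells, at most 1.92 CPM in any zygote library, and 126, 126 and 221 CPM in sperm. GRMZM5G873335 had 17.3, 18.4 and 19.4 CPM in apical and 13.0, 16.0 and 14.1 CPM in basal cells, at most 1.70 CPM in any zygote library, and 131, 87.6 and 124 CPM in sperm. These are the 5 IDs with a sperm mean of at least 100 CPM, and in all 5 the sperm libraries lay above the daughter libraries.

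Other IDs were at like levels in sperm and daughter cells in CPM without TMM scaling. GRMZM2G029223 had 47.3, 34.6 and 40.2 CPM in apical, 54.7, 32.3 and 37.3 CPM in basal and 57.2, 61.2 and 65.7 CPM in sperm cells, against 0.411, 3.10 and 0.716 CPM at 24 h. GRMZM5G814057 had 13.2, 14.6 and 16.0 CPM in apical, 16.9, 15.4 and 18.8 CPM in basal and 11.9, 9.48 and 12.1 CPM in sperm cells, against 1.34, 0.826 and 0 CPM at 24 h. GRMZM5G836886 had 16.7, 22.1 and 18.3 CPM in apical, 20.8, 25.3 and 23.6 CPM in basal and 12.6, 20.4 and 18.2 CPM in sperm cells, against 0.411, 1.03 and 0.606 CPM at 24 h. GRMZM2G130659 had 13.3, 13.9 and 21.6 CPM in apical, 16.1, 16.2 and 17.6 CPM in basal and 15.8, 16.9 and 19.1 CPM in sperm cells, against 2.37, 1.75 and 0 CPM at 24 h. Sperm lay just above the daughters for GRMZM2G029223. Sperm and apical libraries overlapped for GRMZM5G836886 and GRMZM2G130659, and sperm lay just below the daughters for GRMZM5G814057.

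GRMZM2G145772 was the ID without a single count in eggs and zygotes. It had 4.89, 2.88 and 4.22 CPM in apical, 4.09, 4.13 and 6.70 CPM in basal and 82.4, 72.2 and 86.4 CPM in sperm cells. Against the limit that 0 counts allow, taken as 3 counts over the group, daughter cells were at least 68.7-fold higher than eggs, at least 64.1-fold higher than 12 h zygotes and at least 85.2-fold higher than 24 h zygotes.

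Markers of pollen and sperm in the daughter libraries are given beside these values. Of the 5 pollen genes, prf1, which encodes the actin-binding protein profilin, had 23.3, 3.53 and 1.53 CPM in apical and 7.73, 2.72 and 7.80 CPM in basal cells, and it was also present in every egg and zygote library. The second profilin gene, prf2, had 2.06, 0.0504 and 0 CPM in apical and 0, 0.489 and 0 CPM in basal cells. EXPB1, EXPB10 and EXPB11, which encode wall-loosening beta-expansins, had 2.33, 22.8 and 19.6 CPM in apical replicate 1, at most 0.0504 CPM in the other apical libraries and 0 counts in all 3 basal libraries. The gene hap2 had 1.71, 3.78 and 0.225 CPM in apical and 1.23 to 2.34 CPM in basal cells. It also had 2.71 to 10.5 CPM in egg libraries and 3.86 to 8.90 CPM in zygote libraries. The part of RNA from pollen or sperm in the daughter-cell values was not tested.

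**Figure D3:**
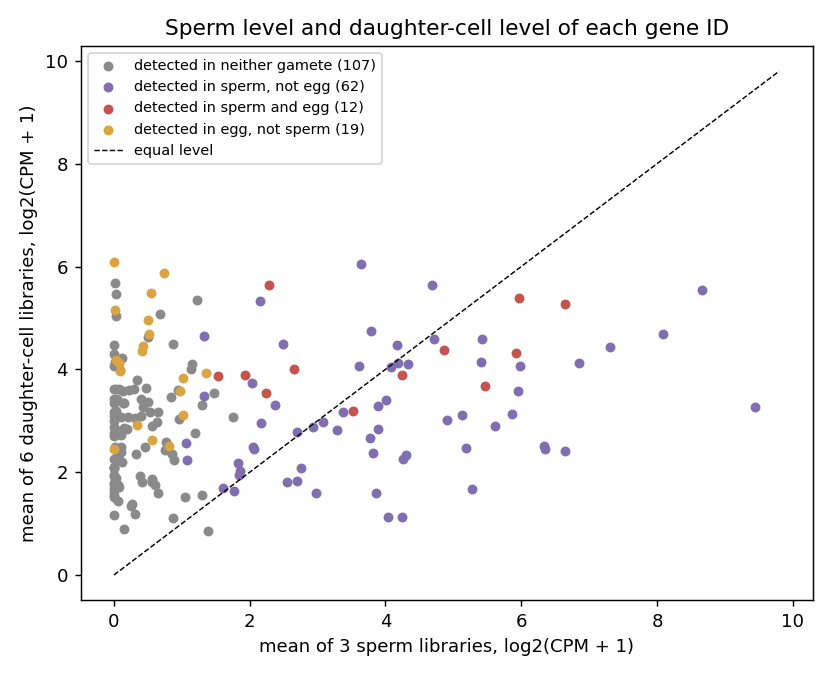
Mean sperm level (horizontal) and mean daughter-cell level (vertical) of each of the 200 IDs, both as log2(CPM + 1), coloured by detection in the gametes, with a dashed line at equal levels. The 49 IDs right of the line have a higher mean in sperm than in daughter cells, and the 107 detected in neither gamete lie near the left edge.

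Some IDs were detected in eggs as well. Of the 200 IDs, 31 (15.5%) were detected in eggs, against 35.7% of all IDs, 83.2% of the 15460 IDs detected in all 6 daughter libraries and 26.8% of the 586 similar IDs. The egg mean entered the selection, so nothing is read from these shares. The egg count depended on 1 library, and without egg replicate 1 it was 72. The highest egg library was replicate 3 for 98 IDs, replicate 1 for 59 and replicate 2 for 43.

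The 19 IDs detected in eggs and not in sperm had a median of 17.8 CPM in apical and 16.0 CPM in basal libraries, 4.31 CPM in eggs, 1.33 CPM at 12 h, 1.70 CPM at 24 h and 0.417 CPM in sperm. Among them GRMZM2G442057 had 74.0, 29.1 and 52.5 CPM in apical and 73.8, 49.3 and 67.3 CPM in basal cells. Its egg libraries had 3.06, 5.93 and 21.3 CPM, all 3 libraries at 12 h had 0 counts, and the 24 h libraries had 0.154, 4.65 and 0.330 CPM. GRMZM2G115255, which the reference places in the same gene, had 57.9, 23.2 and 55.7 CPM in apical and 50.3, 35.4 and 40.3 CPM in basal cells, 4.17, 6.18 and 14.4 CPM in eggs, 0.295, 3.95 and 0.270 CPM at 12 h and 5.76, 6.71 and 0 CPM at 24 h. Both IDs had their lowest apical level in replicate 2 and their highest egg level in replicate 3. Because they share a gene, they are not independent examples.

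GRMZM5G857351 had 26.5, 28.8 and 45.4 CPM in apical and 29.2, 24.8 and 25.3 CPM in basal cells, against 1.45, 5.61 and 10.1 CPM in eggs and at most 3.46 CPM in any zygote library. GRMZM2G477879 had 17.3, 20.4 and 40.1 CPM in apical and 27.0, 19.2 and 24.6 CPM in basal cells, against 1.45, 2.08 and 9.42 CPM in eggs and at most 1.19 CPM in any zygote library. GRMZM2G151266 averaged 49.7 ± 14.3 CPM in apical, 85.3 ± 19.1 CPM in basal and 20.3 ± 24.4 CPM in egg cells (SD, n = 3 each). It had both the highest daughter-cell mean and the highest egg mean of the set, with 1.45, 11.5 and 47.8 CPM in the 3 egg libraries and 0 counts in sperm. Egg replicate 3 overlapped its apical libraries, so the egg and apical ranges of this ID were not separate.

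The 12 IDs detected in both gametes had a median of 15.5 CPM in apical and 15.7 CPM in basal libraries, 5.56 CPM in eggs, 1.24 CPM at 12 h, 1.71 CPM at 24 h and 14.3 CPM in sperm. Of these, GRMZM2G380456 had 27.7, 13.8 and 14.0 CPM in apical and 21.8, 22.4 and 13.6 CPM in basal cells, 1.79, 2.08 and 13.9 CPM in eggs, 1.59, 0.310 and 0.110 CPM at 24 h and 34.8, 51.4 and 91.9 CPM in sperm. GRMZM2G039463 was lower in sperm than in daughter cells, with 15.5, 17.9 and 11.2 CPM in apical, 12.4, 11.6 and 12.8 CPM in basal and 1.99, 2.48 and 1.25 CPM in sperm cells. Both were under 4 CPM in every zygote library.

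Only 6 of the 200 IDs have a gene name in the reference table, against 2599 of all 39475 IDs. Of the 6, 3 belong to transcription factor families. GRMZM2G317160 is EREB26, a member of the AP2/ethylene response factor family of DNA-binding proteins. It had 3.84, 4.64 and 1.53 CPM in apical and 0.985, 1.09 and 1.21 CPM in basal cells, 0 counts in eggs, at most 0.258 CPM in any zygote library and 2.93, 1.72 and 1.52 CPM in sperm. GRMZM2G126957 is CA2P7, of the family of A subunits of the CCAAT-box factor NF-Y. It had 4.77, 5.45 and 4.36 CPM in apical and 5.46, 5.92 and 5.00 CPM in basal cells, against 1.19, 1.64 and 1.31 CPM in eggs and 4.58, 1.03 and 1.32 CPM at 24 h, so 1 library at 24 h reached the apical range. GRMZM2G173198 is CPP8, of a family of cysteine-rich DNA-binding proteins, with 2.29, 3.18 and 2.25 CPM in apical and 2.76, 3.26 and 3.41 CPM in basal cells, 1.34, 1.39 and 1.10 CPM at 24 h and 0 counts in sperm.

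The other 3 names are AUX9 and a pair of kinases. GRMZM2G048131, AUX9, had 11.9, 3.13 and 4.94 CPM in apical and 11.3, 4.78 and 1.43 CPM in basal cells. It had 0 counts in all egg and 12 h libraries and 0.0514, 0.361 and 0 CPM at 24 h, which put daughter cells at least 95.9-fold above eggs and at least 89.4-fold above 12 h zygotes. GRMZM2G125943, HK1a2, belongs to the histidine kinases that include the receptors of the hormone cytokinin. It had 13.6, 9.33 and 3.14 CPM in apical and 3.99, 5.11 and 6.92 CPM in basal cells, 2.58, 0 and 1.98 CPM at 12 h and 0.257, 1.08 and 0.716 CPM at 24 h. It had 0 counts in eggs and in sperm, and daughter cells were at least 108-fold above eggs. GRMZM2G035809, SnRK2.1, belongs to the SnRK2 protein kinases, known for osmotic stress and abscisic acid signalling. It had 8.46, 8.12 and 4.58 CPM in apical and 8.37, 2.66 and 5.88 CPM in basal cells, 0.0738, 3.84 and 0 CPM at 12 h, and 0 counts in eggs and sperm. For all 3 the apical and basal ranges overlapped, and for SnRK2.1 the highest 12 h library passed the lowest basal library.

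Lists of gene families were made from the reference's symbols, and the set holds 0.507% of all IDs. Of 427 transcription factor IDs, EREB26 and CA2P7 were in it. Of 65 auxin IDs, AUX9 was in it. None of 89 cell wall IDs and none of 58 transporter IDs was in it. Between apical and basal cells, edgeR called 0 of the 291 transcription factor, 48 auxin, 63 cell wall and 33 transporter IDs tested. Of these, 21, 8, 9 and 6 had an unadjusted p under 0.05 in the same order, against 5.32% of all IDs tested. The median log2 fold changes of the lists were 0.11, 0.60, 0.12 and -0.12 in the same order, against 0.03 over all IDs tested. DESeq2 called 3 transcription factor IDs, 1 cell wall ID and no auxin or transporter ID, against 0.334% of all IDs it tested.

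The set was thinly annotated. Of the 200 IDs, 148 (74.0%) matched no gene of the reference, 49 matched 1 gene and 3 matched several. The share without a match was 52.1% over all IDs, 29.3% of the 15460 IDs detected in all 6 daughter libraries and 67.2% of the 586 similar IDs. No pair of the 49 placed IDs lay within 5 genes of each other on different reference genes.

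Where a reference gene was found, it often covered more than 1 ID of the count table. Of the 49 IDs matched to 1 gene, 29 (59.2%) shared it with at least 1 other ID, against 6.20% of the 18387 matched IDs of the table, 5.95% of the 10595 matched IDs detected in all 6 daughter libraries and 37.3% of the 185 of these that met the zygote limits. In 3 cases both IDs were in the set. For 27 IDs the gene also held an ID outside the set. For 24 of these 27, such an ID was detected in all 6 zygote libraries. The 23 IDs outside the set that were detected there differed in daughter cells from 24 h zygotes by a median factor of 1.69, with a range of 0.878 to 3.03. CPM is not corrected for length, so the levels of 2 IDs of a gene are not compared, only their courses.

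GRMZM2G070126, at 44.8 CPM in apical, 46.4 CPM in basal and 0.616 CPM in 24 h zygotes on average, shares its gene with GRMZM2G009849, at 393, 307 and 121 CPM in the same groups. The mean of the daughters was 74.1 times that of 24 h zygotes for GRMZM2G070126 and 2.90 times for GRMZM2G009849. GRMZM2G356142 had 29.7 CPM in apical cells and 34.0 CPM in basal cells, 0.154 CPM at 24 h and 0 counts at 12 h. GRMZM2G430027 of the same gene had 421 CPM in apical, 425 CPM in basal, 178 CPM in 24 h and 126 CPM in 12 h zygotes. In both genes 1 ID was near 0 in zygotes and the other was plainly present.

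The ID with 0 counts in eggs and zygotes, GRMZM2G145772, also shares its gene. GRMZM2G145756, the other ID, had 127 CPM in apical cells and 134 CPM in basal cells, 16.4 CPM in eggs, 28.7 CPM at 12 h, 60.5 CPM at 24 h and 511 CPM in sperm. Of the named IDs, CPP8 (GRMZM2G173198) shares its gene with GRMZM2G096600, which had 60.8 CPM in apical, 60.4 CPM in basal, 26.7 CPM in 12 h and 36.9 CPM in 24 h zygotes. The exceptions included AUX9 (GRMZM2G048131), whose second ID GRMZM2G149449 had 0.0447 CPM in apical cells and 0.0509 CPM in basal cells and 0 counts in eggs and zygotes. The sources used here do not give how reads that fit more than 1 ID were counted. The split between IDs of a gene is therefore uncertain, and its part in the low zygote levels was not tested.

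**Figure D4:**
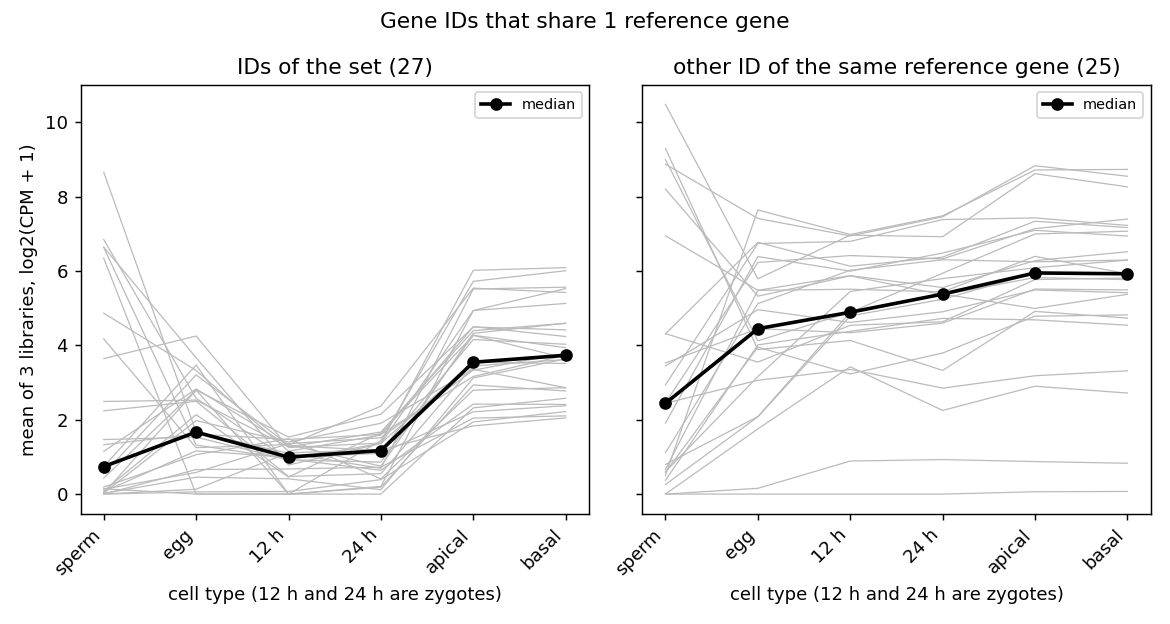
Group means as log2(CPM + 1) of the 27 IDs of the set whose reference gene also holds an ID outside it (left) and of the other ID of the same gene, 25 distinct IDs, that with the highest 24 h level where there were several (right), with the median in black. The left lines are low in zygotes by selection, while most right lines lie well above 0 in zygotes.

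Apical and basal cells were compared to ask whether the IDs differed between the sister cells. None of the 200 IDs differed by edgeR's quasi-likelihood test with Benjamini-Hochberg adjustment over 23806 IDs, and none of the 23806 was called (0%). At an unadjusted p under 0.05 there were 0 of the 200 IDs and 1267 IDs in all (5.32%). With a spread estimated from the 6 daughter libraries alone, edgeR called none of the 200 either, but 13 had an unadjusted p under 0.05, against 8.64% of the 20100 IDs tested. DESeq2 called 0 of 199 tested IDs of the set and 81 of 24278 in all (0.334%). Its unadjusted p was under 0.05 for 3 of the 199 and for 1784 of the 24278. A p above the threshold does not show that the sister cells were alike.

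The log2 fold changes of apical over basal cells ran from -2.20 to 1.89 in the set, with a median of 0.03, against 0.03 over all IDs tested, and the sign of that median depended on the scaling, at -0.05 with library sizes alone, against -0.03 over all. Their median size was 0.24, against 0.39 over all, and the selection by the lowest of the 6 daughter libraries favours even levels. An absolute log2 fold change above 1 was seen for 9 IDs (4.5%). The same share over all IDs tested was not computed, so nothing is read from it. All apical libraries lay above all basal libraries for 11 IDs (5.50%), against 5.26% of all IDs tested, and below them for 13 (6.50%), against 9.81%.

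GRMZM2G114055 had the smallest unadjusted p of the set among IDs higher in apical cells. It had 11.2, 43.1 and 58.6 CPM in apical and 11.9, 13.7 and 6.70 CPM in basal cells, a log2 fold change of 1.89 ± 0.91 (SE) with an edgeR adjusted p of 0.944. Apical replicate 1 lay within the basal range, so the groups overlapped. GRMZM2G135862 had 1.01 to 5.03 CPM in apical libraries and 34.2, 8.31 and 5.93 CPM in basal libraries, a log2 fold change of -2.20 ± 1.10 with an edgeR adjusted p of 0.944. The groups did not overlap, but without basal replicate 1 the value was -0.92. EREB26 (GRMZM2G317160) had a log2 fold change of 1.64 ± 0.92 with an edgeR adjusted p of 0.968, and each apical library was above each basal library.

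**Figure D5:**
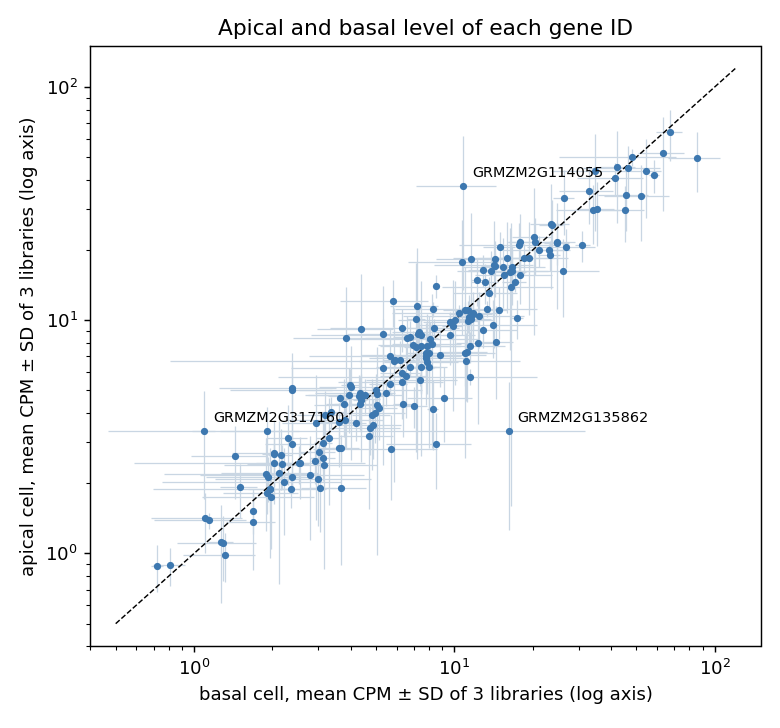
Apical (vertical) against basal (horizontal) mean CPM of each of the 200 IDs on log axes, with bars of 1 SD over 3 libraries and a dashed line at equal levels. Most IDs lie on the line within their spread, and none of the 3 named IDs passed the test.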

How the data were processed

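The authors deposited 1 table of raw, whole-number counts for 18 libraries. Per the submitters' processing notes, cutadapt 1.13, Trimmomatic 0.32, STAR 2.5.2a and featureCounts were used with B73 RefGen_v3. The sources used here do not give strand or multi-mapping settings, so near-identical copies and overlapping genes are uncertain. Per the labels' protocols, cDNA came from a low-input amplification kit.

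CPM used the column total of 39475 IDs, with 0 nameless IDs. Apical and basal cells were compared with edgeR 4.0.16 in R 4.3.3 (TMM, filterByExpr, robust quasi-likelihood) in a fit of the 15 libraries without sperm, whose groups share 1 estimate of spread. An adjusted p under 0.05 was called, and SEs are the fold change over the root of its F statistic. Alternatives were DESeq2 1.42.0, other scalings and filters, 6 libraries only, a replicate block and leaving out each library. A chi-square comparison of libraries within groups found no pair within sampling noise.

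Names came from a RefSeq table of Zm-B73-REFERENCE-NAM-5.0, which matched 18387 IDs to 1 gene and 521 to several and gave 2599 an informative name. Its coordinates are not of the build used for counting and are not given. It holds no descriptions, so only lists made from symbols could be used. A search of promoters for motifs was not run, as no sequences were used here.

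Members and lists were chosen with earlier results of these data known. The named IDs are the first 10 by selection ratio, those with an informative transcription factor or auxin name, and those with the smallest p in each direction between sister cells. The first IDs of each gamete class, those highest in sperm or egg, the shared-gene examples and HK1a2, SnRK2.1 and CPP8 were named after their values were seen.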

Additional observations from a re-analysis of the deposited data

How the results depend on the processing

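No ID of the set was called between apical and basal cells under any alternative, and the fold changes of the 3 named IDs kept their direction. The set's median log2 fold change of apical over basal cells, near 0 throughout, ran from -0.06 to 0.13 and was negative with library sizes alone (-0.05), in the fit of the 6 daughter libraries (-0.01), with the replicate block (-0.02) and without apical replicate 1, apical replicate 3 or basal replicate 2. Over all genes, DESeq2 called 81 and a fit of the 6 daughter libraries called 2. Same-numbered apical and basal deviations correlated at 0.332, 0.357 and -0.00246, and differently numbered ones at -0.403 to 0.112. Whether replicate numbers pair the samples was thus not settled, and the main fit did not pair them. With the replicate block, 0 IDs of the set and 0 of all genes were called, and 14 IDs of the set had an unadjusted p under 0.05, against 11.7% of all tested. A 12 h limit of 1 CPM kept 124 of the 200 IDs, TMM scaling 166, a pseudocount of 0.5 CPM 191, and leaving out 1 library 167 to 191, the fewest without 12 h zygote replicate 2. Detection in eggs, tried after seeing the data, gave 10 IDs at 2 CPM, 47 at 0.5 CPM and 34 to 72 without 1 egg library. Detection in sperm gave 76 to 79 without 1 sperm library. With so few cells per pool, IDs near 1 CPM are poorly resolved: the median coefficient of variation was 26.7% in apical cells and 103% in eggs.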

Other observations

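Several IDs were present in eggs, without counts at 12 h and present again in daughter cells. GRMZM2G356142 had 34.7, 20.0 and 34.4 CPM in apical and 44.3, 25.9 and 31.9 CPM in basal cells, 0, 9.65 and 8.22 CPM in eggs, 0 counts in all 12 h libraries and 0.411, 0.0516 and 0 CPM at 24 h. The 0 counts at 12 h allow up to 0.0699 CPM over the group. It was not detected in eggs by the measure used, because egg replicate 1 had 0 counts. GRMZM2G430027, which shares a gene with GRMZM2G356142, averaged 199 CPM in eggs, 126 CPM at 12 h and 178 CPM at 24 h. The split of reads between these IDs is uncertain, so the course of GRMZM2G356142 is not that of the whole gene. Levels of this kind were chosen by the selection and were not tested.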
